A study of Mus musculus with 12 samples.

Results

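The genes Nlrp3, Il1b, Tnf, Il6 and Acod1, which inflamed macrophages are known to express, were followed in the livers of mice with and without colitis. They were taken by name as 5 of the 51609 gene rows of the count table, and each Ensembl identifier was read from the GENCODE vM1 annotation of the mouse genome build mm9, where Acod1 still carries its older symbol Irg1. All 5 had a row. The livers came from 4 groups of 3 C57BL/6 mice aged 5 to 7 weeks, of either sex. Wild-type mice carried loxP-flanked alleles of both genes (Rela fl/fl Stat3 fl/fl) without Cre and were littermates of the knockout mice. Mice labelled RelaΔhepStat3Δhep carried the same alleles with Cre under the albumin promoter, which is active in hepatocytes. The study describes the deletion as specific to hepatocytes, and which liver cells kept both genes was not examined here. In each genotype 1 group drank plain water (untreated) and 1 group drank water with 2% dextran sodium sulfate (DSS), a polymer that injures the colon, for 6 days. The comparisons ask how the liver responds to colitis and which part of that response needs Rela, a subunit of NF-kB, and Stat3 in hepatocytes.

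In macrophages, bacterial lipopolysaccharide (LPS) reaching Toll-like receptors activates NF-kB, which switches on the genes for the cytokines TNF, IL-6 and pro-IL-1β and for the sensor NLRP3. NLRP3 then assembles an inflammasome with the adaptor ASC and caspase-1, which cleaves pro-IL-1β into its active form. Acod1 encodes the enzyme that makes itaconate from the Krebs cycle intermediate cis-aconitate, and itaconate is known to restrain inflammatory signalling. Liver macrophages, called Kupffer cells when resident, line the sinusoids that carry blood from the gut.

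The stretch of 250 bases before the start of transcription is shown for the 4 genes with cytokine or enzyme products, since all of them are textbook targets of inflammatory transcription factors. The sequences are the RefSeq promoters of build GRCm38.p6, written 5′ to 3′ and ending at the base before the start, and all 5 genes matched an entry. Capitals mark the motif matches found on either strand.
Il6, chr5:30012864-30013113, plus strand: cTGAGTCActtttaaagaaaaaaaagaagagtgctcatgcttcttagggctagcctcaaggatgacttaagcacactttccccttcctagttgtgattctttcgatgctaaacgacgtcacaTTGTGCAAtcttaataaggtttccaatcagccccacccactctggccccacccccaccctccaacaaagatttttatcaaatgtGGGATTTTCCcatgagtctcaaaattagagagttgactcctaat
Acod1, chr14:103046762-103047011, plus strand: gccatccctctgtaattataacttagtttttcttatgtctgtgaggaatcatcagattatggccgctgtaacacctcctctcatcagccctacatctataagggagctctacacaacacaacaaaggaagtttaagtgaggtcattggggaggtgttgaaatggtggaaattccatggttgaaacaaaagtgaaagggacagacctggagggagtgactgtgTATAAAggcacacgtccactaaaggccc
Il1b, chr2:129371140-129371389, minus strand: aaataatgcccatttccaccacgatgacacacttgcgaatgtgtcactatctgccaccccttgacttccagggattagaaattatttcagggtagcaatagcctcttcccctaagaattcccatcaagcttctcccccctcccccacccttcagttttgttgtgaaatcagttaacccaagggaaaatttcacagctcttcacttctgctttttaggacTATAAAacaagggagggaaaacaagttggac
Tnf, chr17:35202008-35202257, minus strand: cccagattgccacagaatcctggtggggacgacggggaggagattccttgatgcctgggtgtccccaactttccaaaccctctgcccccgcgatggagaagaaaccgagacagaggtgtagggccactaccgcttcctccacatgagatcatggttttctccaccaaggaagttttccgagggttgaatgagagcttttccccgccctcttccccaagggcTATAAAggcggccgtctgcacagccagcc
The search covered the NF-kB consensus, STAT (TTCNNNGAA), AP-1 (TGANTCA), C/EBP (TTGCNNAA), CRE (TGACGTCA) and the TATA box (TATAAA). In Il6 the NF-kB match GGGATTTTCC lay at -44 to -35 from the start, the C/EBP match TTGTGCAA, read on the other strand, at -128 to -121, and the AP-1 match TGAGTCA at -249 to -243. Il1b, Tnf and Acod1 held a TATA box at -31 to -26, -29 to -24 and -28 to -23. Nlrp3 has 2 promoters in that table, of which the first held an NF-kB match GGGAACCCCC at -186 to -177 and the second held none of these motifs. Of all 32851 promoters of the same length, 7.25% held the NF-kB consensus, 7.02% STAT, 6.75% AP-1, 9.56% C/EBP, 1.55% CRE and 12.37% the TATA box. No STAT or CRE match was found in these windows, which says nothing about binding elsewhere.

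All 5 genes are protein coding and were counted at low levels, which limits what follows. Each level is given in CPM, counts scaled to library sizes that TMM had adjusted, and library totals ran from 65879529 to 82850098 estimated counts. Summed over the 12 libraries, Il1b had 2333 counts, Nlrp3 1977, Acod1 1358, Tnf 514 and Il6 148. Nlrp3, Il1b and Tnf had at least 10 counts in all 12 libraries and Acod1 in 11. Il6 reached 10 counts only in the 6 DSS libraries and stood at 0 in 5 of the 6 untreated ones, so that it passed the low-count filter only through the groups in which it was higher. Across the whole table the most frequent non-zero value was 3 (9552 values), ahead of 1 (7040) and 2 (7081), so a count here cannot be read as a single sequenced fragment and the counting error of the low values is not known.

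The labels were checked on the targeted genes. Rela had 45.5, 54.5 and 41.2 CPM in the untreated wild-type libraries, 41.1, 39.8 and 55.5 in the wild-type DSS libraries, 42.8, 43.8 and 51.4 in the untreated RelaΔhepStat3Δhep libraries and 39.5, 62.3 and 46.4 in the RelaΔhepStat3Δhep DSS libraries. These ranges overlap throughout. Stat3 had 45.7, 138 and 87.5 CPM in untreated and 63.2, 329 and 307 in DSS-treated wild-type mice, against 45.9, 46.7 and 49.7 in untreated and 43, 58 and 74.7 in DSS-treated RelaΔhepStat3Δhep mice. Deleted exons were not examined, and the genotype is used below as the labels give it. Transcripts of Xist, which is made from the inactive X chromosome, were at 902 to 1283 CPM in all 3 RelaΔhepStat3Δhep DSS libraries and at 1143 CPM in the third untreated wild-type library, and at most at 29 CPM in the other 8. The summed level of the Y-linked genes Ddx3y, Uty, Kdm5d and Eif2s3y was 0.0424 to 0.12 CPM in those 3 DSS libraries, 30.1 CPM in the third untreated wild-type library and 175 to 241 CPM in the other 8. In RelaΔhepStat3Δhep mice the effect of DSS, and in DSS-treated mice the effect of genotype, therefore cannot be told apart from sex. The libraries hold liver RNA, with hepatocyte markers summing to between 81585 and 167173 CPM.

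Nlrp3 (ENSMUSG00000032691, chr11:59355070-59380458, plus strand, mm9) encodes the inflammasome sensor. Its levels were 1.42, 1.19 and 0.98 CPM in untreated wild-type mice, from 108, 87 and 65 counts. They were 2.67, 2.69 and 1.55 CPM after DSS, from 191, 169 and 105 counts. In RelaΔhepStat3Δhep mice they were 1.67, 1.5 and 2.24 CPM untreated, from 126, 109 and 166 counts, and 4.05, 3.73 and 3.6 CPM after DSS, from 284, 312 and 255 counts. Every DSS library was above every untreated library of its genotype. The means ran in the order untreated wild-type (1.2 ± 0.22, SD, n = 3), untreated RelaΔhepStat3Δhep (1.81 ± 0.385), wild-type DSS (2.3 ± 0.65) and RelaΔhepStat3Δhep DSS (3.8 ± 0.231), and of these neighbours only the middle pair overlapped.

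Il1b (ENSMUSG00000027398, chr2:129190306-129196875, minus strand, mm9) encodes the precursor that the inflammasome matures. Untreated wild-type mice had 1.72, 2.12 and 1.72 CPM, from 131, 155 and 114 counts, and wild-type mice given DSS had 3.17, 2.96 and 1.33 CPM, from 227, 186 and 90 counts. The third wild-type DSS library was thus lower than every untreated wild-type library, and the groups overlapped. Untreated RelaΔhepStat3Δhep mice had 2.11, 1.28 and 1.46 CPM, from 159, 93 and 108 counts, and DSS-treated ones 5.36, 5.52 and 3.29 CPM, from 376, 461 and 233 counts. The lowest of these DSS values lay above all 9 values of the other groups. The group means were 1.62 ± 0.438 CPM (untreated RelaΔhepStat3Δhep), 1.85 ± 0.229 (untreated wild-type), 2.49 ± 1.01 (wild-type DSS) and 4.72 ± 1.24 (RelaΔhepStat3Δhep DSS), and the first 3 of these groups overlapped with their neighbours. The gene shares its locus with the antisense-strand transcript Gm14047, whose row held 0 to 6 counts per library, and reads from the pair cannot be told apart where the counting did not use strand.

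Tnf (ENSMUSG00000024401, chr17:35336326-35338952, minus strand, mm9) encodes the cytokine TNF. Untreated wild-type libraries held 0.421, 0.273 and 0.392 CPM, from 32, 20 and 26 counts, and wild-type DSS libraries 0.866, 0.78 and 0.591 CPM, from 62, 49 and 40 counts. These groups did not overlap. Untreated RelaΔhepStat3Δhep libraries spread from 0.138 to 0.634 CPM with 0.412 between, on 10, 47 and 31 counts, and the DSS libraries held 1.17, 0.934 and 0.522 CPM, from 82, 78 and 37 counts. The third DSS library fell inside the untreated range. No neighbours among the 4 group means of Tnf, which ran from 0.362 ± 0.0782 to 0.875 ± 0.327 CPM, were free of overlap.

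Il6 (ENSMUSG00000025746, chr5:30339701-30346508, plus strand, mm9) encodes the cytokine that signals to hepatocytes through gp130 and Stat3. It had 0, 6 and 0 counts in untreated wild-type mice and 0 counts in all 3 untreated RelaΔhepStat3Δhep mice. After DSS it had 31, 29 and 15 counts in wild-type mice, or 0.433, 0.462 and 0.222 CPM. In RelaΔhepStat3Δhep mice it had 30, 27 and 10 counts after DSS, or 0.428, 0.323 and 0.141 CPM. The transcript was therefore seen in every DSS library and in 1 of 6 untreated libraries, and the DSS groups of the genotypes overlapped (0.372 ± 0.131 against 0.297 ± 0.145 CPM).

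Acod1 (ENSMUSG00000022126, chr14:103446194-103455790, plus strand, mm9) had 12, 7 and 10 counts in untreated wild-type mice, or 0.158, 0.0957 and 0.151 CPM. After DSS it had 211, 112 and 40 counts, or 2.95, 1.78 and 0.591 CPM, and the lowest of these was above the highest untreated value. Untreated RelaΔhepStat3Δhep mice had 50, 40 and 48 counts, or 0.664, 0.552 and 0.648 CPM, all above the untreated wild-type range of 0.0957 to 0.158. DSS-treated RelaΔhepStat3Δhep mice had 338, 328 and 162 counts, or 4.82, 3.93 and 2.29 CPM. Their lowest library overlapped with the wild-type DSS range. The group means ran from 0.135 ± 0.034 CPM (untreated wild-type) through 0.621 ± 0.0608 (untreated RelaΔhepStat3Δhep) and 1.77 ± 1.18 (wild-type DSS) to 3.68 ± 1.28 (RelaΔhepStat3Δhep DSS). Of these neighbours only the untreated groups were free of overlap.

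**Figure D1:**
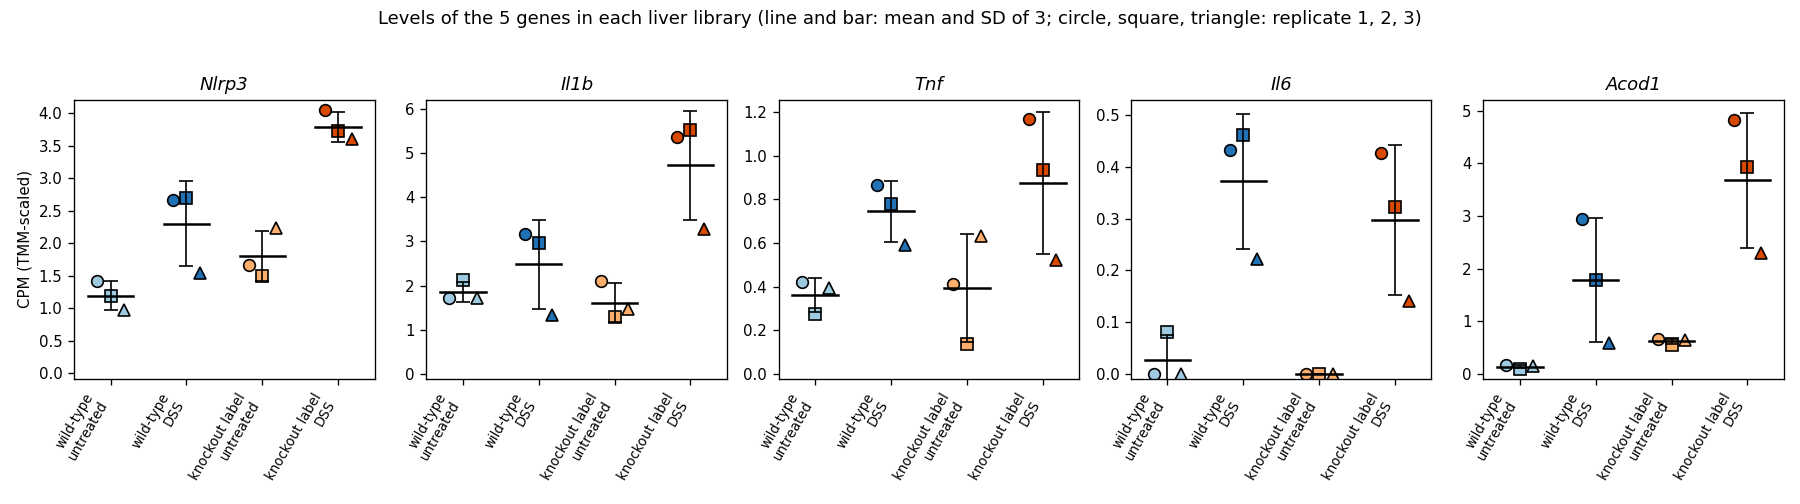
Level of each gene (CPM, y axis, a separate linear scale per panel) in the 12 libraries by group, with the group mean and SD as line and bar and replicates 1, 2 and 3 as circle, square and triangle, and with RelaΔhepStat3Δhep as the knockout label. The third DSS library is the lowest DSS value of all 5 genes in both genotypes, and Il6 lies at 0 in 5 of the 6 untreated libraries.

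The third DSS library of each genotype held the lowest DSS value of every one of the 5 genes, from 0.141 CPM (Il6) to 3.6 CPM (Nlrp3) in RelaΔhepStat3Δhep mice. Divided by the length of exons, the order of the genes can be compared. In the RelaΔhepStat3Δhep DSS group Il1b had 2.48 ± 0.652 CPM per kilobase, Acod1 1.4 ± 0.49, Nlrp3 0.935 ± 0.057, Tnf 0.534 ± 0.2 and Il6 0.274 ± 0.133. In untreated wild-type mice the order was Il1b (0.972 ± 0.12), Nlrp3 (0.295 ± 0.0543), Tnf (0.221 ± 0.0477), Acod1 (0.0514 ± 0.013) and Il6 (0.0251 ± 0.0435). On this scale of CPM per kilobase Acod1 thus stood below Nlrp3 and Tnf in untreated wild-type mice and above both in DSS-treated RelaΔhepStat3Δhep mice.

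In wild-type mice, Acod1 rose after DSS by 3.7 on the log2 scale (SE 0.54, edgeR quasi-likelihood test with Benjamini-Hochberg adjustment, adjusted p = 0.0101), a 13.2-fold ratio of mean CPM. It was the only one of the 5 called, that is, with an adjusted p under 0.05, and 0.453% of all 17652 tested genes were called higher in this comparison. The other 4 had positive log2 fold changes that did not pass the threshold: Nlrp3 0.94 (SE 0.27, edgeR adjusted p = 0.122), Tnf 1.04 (SE 0.5, edgeR adjusted p = 0.363), Il1b 0.42 (SE 0.33, edgeR adjusted p = 0.608) and Il6 3.67 (SE 1.16, edgeR adjusted p = 0.173). The value for Il6 rests on 6 counts in a single untreated library, and Il6 passed the low-count filter only through its DSS libraries. Nlrp3, Tnf and Acod1 did not overlap between the groups (exact permutation test, two-sided, p = 0.1 for each, the smallest that 3 mice against 3 can give), and 9.49% of all tested genes were likewise higher without overlap. Il6 is left out here because of how it passed the filter. The call of Acod1 was lost without the second untreated library (edgeR adjusted p = 0.0572) and in a fit of the wild-type groups alone (edgeR adjusted p = 0.109), at log2 fold changes of 3.51 and 3.7. With the DESeq2 Wald test Nlrp3 was called as well (DESeq2 adjusted p = 0.027), while 3.45% of the genes that test covered were called higher.

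In RelaΔhepStat3Δhep mice, Il1b, Nlrp3 and Acod1 rose after DSS and Tnf was not called. Il1b was higher by 1.54 on the log2 scale (SE 0.34, edgeR adjusted p = 0.0179), Nlrp3 by 1.07 (SE 0.26, edgeR adjusted p = 0.0304) and Acod1 by 2.56 (SE 0.48, edgeR adjusted p = 0.0104). Tnf had a log2 fold change of 1.14 (SE 0.5, edgeR adjusted p = 0.179). Of all tested genes, 4.57% were called higher in this comparison. Il6, whose untreated libraries were all at 0, was at least 7.33-fold higher against a floor of 3 counts per library, 0.0406 CPM on average. Because Il6 entered the test only through its DSS libraries, its edgeR call is not read as support and it is left out of the genes named as risen. Il1b, Nlrp3 and Acod1 did not overlap between the groups (exact permutation test, two-sided, p = 0.1 for each, and p = 0.2 for Tnf), and 17.8% of all tested genes were higher without overlap. Il6 is left out here for the same reason.

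These calls lie close to the threshold. Without the second untreated library none was called, at log2 fold changes of 2.49 for Acod1 (edgeR adjusted p = 0.0614), 1.41 for Il1b (edgeR adjusted p = 0.0907) and 0.96 for Nlrp3 (edgeR adjusted p = 0.13). Without the first or the second DSS library Acod1 alone of the 3 was called, without the first untreated library Il1b and Acod1, without the third untreated library Nlrp3 and Acod1, and without the third DSS library Il1b and Acod1 but not Nlrp3. Over these fits the log2 fold change ran from 2.31 to 2.81 for Acod1, from 1.41 to 1.79 for Il1b and from 0.96 to 1.25 for Nlrp3. When high Xist entered the model as a covariate, none was called, at log2 fold changes of 1.48 for Nlrp3 (SE 0.49, edgeR adjusted p = 0.325), 1.7 for Il1b (SE 0.64, edgeR adjusted p = 0.366) and 2.32 for Acod1 (SE 1.06, edgeR adjusted p = 0.449). Outside the RelaΔhepStat3Δhep DSS group only the third untreated wild-type library was high in Xist. The covariate therefore rests on that library, and this fit cannot separate sex from DSS. With the DESeq2 Wald test these 3 genes were called, as was Il6 with the same limit, and 7.94% of genes were called higher.

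**Figure D2:**
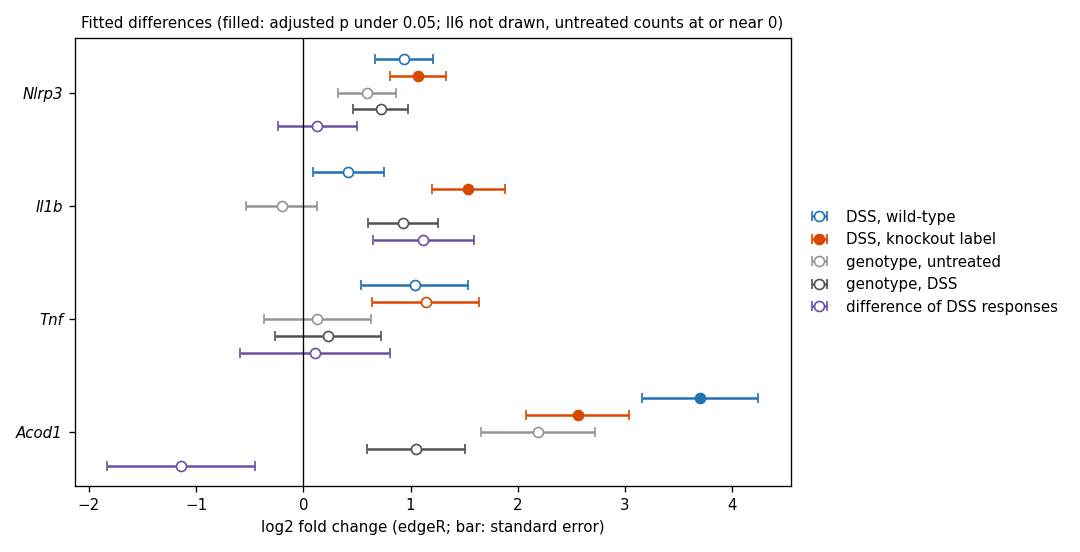
Fitted log2 fold changes (x axis, edgeR, with the standard error as bar) of 4 genes in the 5 comparisons; filled points have an adjusted p under 0.05 and the knockout label is RelaΔhepStat3Δhep. Acod1 is filled in both DSS comparisons and Nlrp3 and Il1b only in that of RelaΔhepStat3Δhep mice, while the differences between genotypes are open; Il6 is left out because its untreated libraries were at or near 0.

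Between the genotypes, none of the 5 genes was called in untreated mice by edgeR, in a comparison in which 0.034% of all tested genes were called higher. At an unadjusted p under 0.05, Acod1 and Nlrp3 were higher in RelaΔhepStat3Δhep mice, as were 5.44% of all tested genes. Acod1 differed by 2.19 on the log2 scale (SE 0.53, edgeR adjusted p = 0.153), a 4.61-fold ratio of mean CPM at levels of 40 to 50 against 7 to 12 counts, and the DESeq2 Wald test called it (DESeq2 adjusted p = 0.0091, with 0.998% of genes called higher). Nlrp3 differed by 0.59 (SE 0.27, edgeR adjusted p = 0.414). Both genes were higher without overlap (exact permutation test, two-sided, p = 0.1), as were 9.56% of all tested genes. Il1b had a log2 difference of -0.2 (SE 0.33, edgeR adjusted p = 0.867) and Tnf of 0.13 (SE 0.5, edgeR adjusted p = 0.947), and no fold is given for Il6, which had 6 counts in 1 of these 6 libraries (edgeR adjusted p = 0.433).

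In DSS-treated mice edgeR called none of the 5 genes between the genotypes, and 0.187% of all tested genes were called higher in RelaΔhepStat3Δhep mice. The DESeq2 Wald test called none either, with 1.69% of genes called higher. At an unadjusted p under 0.05, 3 of the 5 were higher, beside 7.18% of all tested genes. These were Il1b, with a log2 difference of 0.93 (SE 0.33, edgeR adjusted p = 0.239), Nlrp3, with 0.72 (SE 0.26, edgeR adjusted p = 0.246), and Acod1, with 1.05 (SE 0.46, edgeR adjusted p = 0.322). Nlrp3 and Il1b did not overlap between the genotypes (exact permutation test, two-sided, p = 0.1), which was so for 8.8% of all tested genes in that direction. Tnf differed by 0.23 (SE 0.49, edgeR adjusted p = 0.876) and Il6 by -0.32 (SE 0.98, edgeR adjusted p = 0.921). With high Xist as a covariate the log2 differences were 1.08 for Il1b (SE 0.63, edgeR adjusted p = 0.822), 1.13 for Nlrp3 (SE 0.49, edgeR adjusted p = 0.758) and 0.81 for Acod1 (SE 1.04, edgeR adjusted p = 0.938). All 3 RelaΔhepStat3Δhep libraries of this comparison were high in Xist and all 3 wild-type ones were not, so genotype and sex cannot be told apart here. The comparison shares its libraries with the DSS comparisons above.

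The response to DSS was not shown to differ between the genotypes for any of the 5 genes. The difference of the log2 fold changes, RelaΔhepStat3Δhep minus wild-type, was 1.12 for Il1b (SE 0.47, edgeR adjusted p = 0.263), -1.14 for Acod1 (SE 0.69, edgeR adjusted p = 0.43), 0.13 for Nlrp3 (SE 0.37, edgeR adjusted p = 0.897) and 0.11 for Tnf (SE 0.7, edgeR adjusted p = 0.961). Of all tested genes edgeR called 0.408% in either direction. Il1b alone had an unadjusted p under 0.05, as did 8.83% of all tested genes with a positive difference, and the DESeq2 Wald test called none of the 5 and 2.51% of genes as more strongly raised. For Il6 no fold is given, since 5 of its 6 untreated libraries were at 0 (edgeR adjusted p = 0.377). The call of Nlrp3 and Il1b in RelaΔhepStat3Δhep mice and not in wild-type mice is therefore not shown to be a difference between the genotypes.

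In whole liver RNA, more cells of a type and more RNA per cell cannot be told apart, so the levels of cell type markers are given beside the 5 genes. The 11 Kupffer cell markers, among them Clec4f, Vsig4 and Timd4, were all detected and summed to between 347 and 687 CPM in untreated wild-type mice and between 542 and 1165 CPM after DSS, with 0 of the 11 called by edgeR and 7 at an unadjusted p under 0.05, beside 0.453% of all tested genes called higher and 14.5% at such a p. In RelaΔhepStat3Δhep mice their sum was 427 to 471 CPM untreated and 808 to 1240 CPM after DSS, and 9 of the 11 were called higher, beside 4.57% of all tested genes. The 10 pan-macrophage and monocyte markers with a row, such as Cd68, Lyz2 and Ccr2, summed to 125 to 163 CPM and 144 to 262 CPM in wild-type mice and to 161 to 181 CPM and 259 to 476 CPM in RelaΔhepStat3Δhep mice. Of these 10, 2 were called higher in wild-type mice, beside 0.453% of all tested genes, and 6 were called higher and 1 lower in RelaΔhepStat3Δhep mice, beside 4.57% called higher. In both genotypes the third DSS library had the lowest sum of both lists among the DSS libraries, as it had for the 5 genes.

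Set against the Kupffer cell sum, the genes fell into different patterns. Acod1 stood at 0.23 to 0.312 CPM per 1000 CPM of Kupffer markers in untreated and 1.09 to 4.21 in DSS-treated mice of the wild type, and at 1.29 to 1.48 and 2.83 to 3.89 in RelaΔhepStat3Δhep mice, so that its groups stayed apart in both genotypes. Il6 went from 0 to 0.236 up to 0.396 to 0.618 in wild-type mice and from 0 up to 0.175 to 0.345 in RelaΔhepStat3Δhep mice. Nlrp3 overlapped in both genotypes, at 2.03 to 3.42 and 2.31 to 3.81 in wild-type mice and 3.52 to 5.12 and 3.27 to 4.46 in RelaΔhepStat3Δhep mice. Il1b overlapped too, with 2.51 to 6.1 and 2.46 to 4.53 in wild-type mice and 3.01 to 4.49 and 4.07 to 4.83 in RelaΔhepStat3Δhep mice, as did Tnf, with 0.612 to 0.812 and 0.669 to 1.24, and 0.323 to 1.45 and 0.647 to 0.943. Untreated RelaΔhepStat3Δhep mice remained above untreated wild-type mice for Acod1 on this scale too. Set against the pan-macrophage and monocyte sum, Acod1 again stayed apart, at 0.765 to 1.06 and 4.12 to 11.6 in wild-type mice and 3.04 to 4.03 and 8.82 to 12.6 in RelaΔhepStat3Δhep mice. On that scale Nlrp3 (6.89 to 9.5 and 10.2 to 10.8) and Tnf (2.18 to 2.76 and 2.97 to 4.12) did not overlap in wild-type mice, while both overlapped in RelaΔhepStat3Δhep mice and Il1b overlapped in both genotypes. Because Il6 passed the low-count filter only through its DSS libraries, it is not read as staying apart on either scale. These ratios were computed after the levels had been seen and are given as a description, without a test. The share of all tested genes that stays apart on these scales is not given.

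Neutrophils, which can also express several of these genes, were marked by 10 genes that all had a row, and 8 of them passed the low-count filter. Their sum was 4.18 to 6.5 CPM in untreated wild-type mice, 10, 124 and 4.95 CPM in the wild-type DSS libraries, 1.82 to 2.49 CPM in untreated RelaΔhepStat3Δhep mice and 11.4 to 30.6 CPM after DSS. By edgeR 0 of the 8 were called in wild-type and 1 in RelaΔhepStat3Δhep mice, beside 0.453% and 4.57% of all tested genes called higher, and 6 in each genotype had an unadjusted p under 0.05, beside 14.5% and 24.1%. Some of the 8 were at 0 counts in untreated libraries and entered the test through libraries where they were high, so these counts are given as a description. The wild-type DSS library with 124 CPM had the highest Nlrp3 (2.69 CPM) and Il6 (0.462 CPM) of its group and the middle value of Acod1 (1.78 CPM), Il1b (2.96 CPM) and Tnf (0.78 CPM). Other cell types were read in the same way. In RelaΔhepStat3Δhep mice the sum of 5 dendritic cell markers was 4.13 to 4.63 CPM untreated and 6.96 to 12 CPM after DSS, that of 8 T and NK cell markers 5.1 to 7.59 and 10.3 to 19.6 CPM, that of 5 B and plasma cell markers 4.32 to 4.86 and 5.59 to 13.7 CPM, and that of 6 stellate cell markers 347 to 397 and 411 to 509 CPM, each without overlap. By edgeR, 1 T and NK cell marker and 1 stellate cell marker were called higher and none of the dendritic or B and plasma cell markers, beside 4.57% of all tested genes, with 3 genes of each of the 4 lists at an unadjusted p under 0.05, beside 24.1% of all tested genes. In wild-type mice the sums of dendritic cell (2.93 to 5.84 and 3.58 to 7.52 CPM), T and NK cell (5.43 to 12.4 and 2.6 to 9.12 CPM) and stellate cell markers (349 to 459 and 314 to 408 CPM) overlapped. B and plasma cell markers stood lower after DSS there, at 7.92 to 10.8 and 4.47 to 6.8 CPM, with 0 of 5 log2 fold changes positive, as against 1 of 8 for T and NK cells. The 4 cholangiocyte markers with a row summed to 6.02 to 9.01 and 12.2 to 21 CPM in wild-type mice, although 1 of the 4 fold changes was positive, and to 9.66 to 14.4 and 10.7 to 16.4 CPM in RelaΔhepStat3Δhep mice. Endothelial sums overlapped in both genotypes. By edgeR 0 markers of these 6 lists were called in wild-type mice, and 1 to 3 of each list had an unadjusted p under 0.05, beside 0.453% of all tested genes called higher and 14.5% at such a p. Between the genotypes after DSS, all 8 T and NK cell markers had a positive log2 difference, beside 49.7% of all tested genes, with 6 at an unadjusted p under 0.05, beside 7.18% of all tested genes as higher, and 0 called by edgeR. Positive too in that comparison were 10 of 11 Kupffer cell markers (median 0.41), 9 of 10 pan-macrophage and monocyte markers (0.46), 5 of 5 dendritic cell markers (0.93), 5 of 5 B and plasma cell markers (0.95) and 6 of 6 endothelial markers (0.46), with 2, 3, 1, 1 and 3 at an unadjusted p under 0.05, beside 14.3% of all tested genes, and 0 of these called by edgeR. Of stellate cell markers 4 of 6 were positive (0.22), of cholangiocyte markers 1 of 4 (-0.2) and of tested neutrophil markers 1 of 8 (-1.22). For neutrophils 0 of the 8 had an unadjusted p under 0.05, and the wild-type DSS libraries were spread widely, at 10, 124 and 4.95 CPM. The part of cell numbers in the changes of the 5 genes was not tested.

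**Figure D3:**
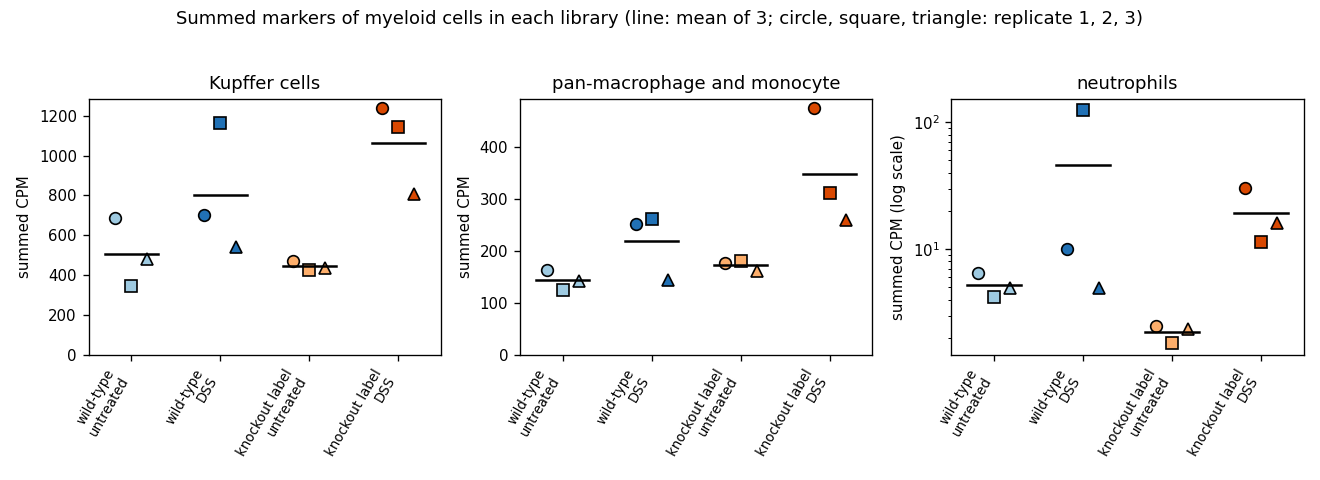
Summed CPM (y axis, logarithmic for neutrophils) of the markers of Kupffer cells, of pan-macrophage and monocyte genes and of neutrophils in each library, with the mean of 3 as a line and replicates 1, 2 and 3 as circle, square and triangle, and with RelaΔhepStat3Δhep as the knockout label. Kupffer sums overlap between untreated and DSS in wild-type mice (347 to 687 and 542 to 1165 CPM) and do not in RelaΔhepStat3Δhep mice (427 to 471 and 808 to 1240 CPM).

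Genes with known roles beside the 5 were read from lists of their pathways. Over all tested genes the median log2 fold change after DSS was 0.02 in wild-type and -0.01 in RelaΔhepStat3Δhep mice, with 52.2% and 49.4% positive and 0.453% and 4.57% called higher, and the counts below are read beside these. In RelaΔhepStat3Δhep mice 23 genes of the 5 lists were called, 4 of the 5 genes above included, and none of the 23 was called without the second untreated library (edgeR adjusted p from 0.0506 to 0.164) or with high Xist as a covariate (from 0.206 to 0.749). In wild-type mice 5 were called, and none of them without the second untreated library (edgeR adjusted p from 0.0572 to 0.0961). The inflammasome and IL-1 list of 20 genes includes Nlrp3 and Il1b. Of the other 18, 1 was called higher in wild-type mice after DSS (median log2 fold change 0.55), and 7 were called higher and 1 lower in RelaΔhepStat3Δhep mice (median 0.74). Il18bp, which encodes the soluble antagonist of IL-18, rose in both, from 16.6, 8.96 and 11.7 CPM to 43.6, 79.9 and 29 CPM in wild-type mice (log2 fold change 2.03, SE 0.35, edgeR adjusted p = 0.024) and from 17.7, 14.5 and 19.5 CPM to 49.3, 68.5 and 41.3 CPM in RelaΔhepStat3Δhep mice (1.62, SE 0.35, edgeR adjusted p = 0.019). In RelaΔhepStat3Δhep mice Casp4, which encodes the caspase that senses cytosolic LPS, rose by 1.39 (SE 0.33, edgeR adjusted p = 0.0248). Il1rap, the accessory chain of the IL-1 receptor, fell by 0.76 (SE 0.19, edgeR adjusted p = 0.031), from 260, 256 and 192 to 169, 120 and 129 CPM. The other 5 genes called higher there, named after their values were seen, were Pycard (1.29), which encodes ASC, Casp1 (1.08), the gasdermin gene Gsdmd (0.7) and the cytokine genes Il18 (0.71) and Il1a (1.05), with edgeR adjusted p-values from 0.0213 to 0.0444. The wild-type call of Il18bp was also lost without the third untreated library (1.99, edgeR adjusted p = 0.112), with high Xist as a covariate (1.99, edgeR adjusted p = 0.108) and with only the groups compared (2.03, edgeR adjusted p = 0.146). The other 10 genes of the list of 20 were not called there, among them the sensor genes Nlrc4, Aim2 and Nlrp1b and the Nlrp3 partner Nek7, while 9 of the 11 Kupffer cell markers were called higher. The calls of the whole list in these mice fell from 10 to between 0 and 7 when each library was left out.

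The TNF list had 15 tested genes, with Tnf not called in any comparison. Tnfrsf1b, the gene of TNF receptor 2, was called higher in wild-type mice after DSS, from 28, 24.4 and 22.8 CPM to 42, 50.6 and 45.2 CPM (log2 fold change 0.87, SE 0.15, edgeR adjusted p = 0.0196). The call was also lost without the third untreated library (0.81, edgeR adjusted p = 0.0983), with high Xist as a covariate (0.81, edgeR adjusted p = 0.0955) and with only the groups compared (0.87, edgeR adjusted p = 0.0855). In RelaΔhepStat3Δhep mice it went from 37, 50.3 and 39.3 CPM to 31.9, 39.4 and 32.3 CPM (-0.29, SE 0.15, edgeR adjusted p = 0.255). With all libraries it was the only gene of the 5 lists whose DSS response edgeR called as different between the genotypes (-1.16, SE 0.21, edgeR adjusted p = 0.0431). In either direction, the DESeq2 Wald test called 1 gene each of the inflammasome, TNF and itaconate lists. It called 2.51% of genes as more strongly raised, and its share in either direction is not given. The edgeR call of Tnfrsf1b was lost on leaving out any library other than the first wild-type DSS and the second RelaΔhepStat3Δhep DSS library (edgeR adjusted p from 0.0529 to 0.123). It was also lost with high Xist as a covariate (edgeR adjusted p = 0.627). Birc3 (0.88, SE 0.16, edgeR adjusted p = 0.00853) and Tnip1 (0.84, SE 0.16, edgeR adjusted p = 0.0108), which encode regulators of signalling below the TNF receptors, were called higher in RelaΔhepStat3Δhep mice.

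Of the 14 tested genes of the IL-6 family list, Socs1, a feedback inhibitor of JAK kinases, rose in both genotypes. Its levels went from 0.105, 0.219 and 0.347 to 3, 1.13 and 0.828 CPM in wild-type mice (log2 fold change 2.89, SE 0.51, edgeR adjusted p = 0.0222) and from 0.611, 0.524 and 0.715 to 3.68, 3.58 and 4.89 CPM in RelaΔhepStat3Δhep mice (2.71, SE 0.48, edgeR adjusted p = 0.0081). The wild-type call was also lost without the first untreated library (2.55, edgeR adjusted p = 0.0785) and with only the groups compared (2.88, edgeR adjusted p = 0.173), and in RelaΔhepStat3Δhep mice the value was 1.62 with high Xist as a covariate (edgeR adjusted p = 0.543). The receptor genes Il6st, which encodes gp130, and Lifr had log2 fold changes of 0.69 (SE 0.17, edgeR adjusted p = 0.0804) and -0.98 (SE 0.28, edgeR adjusted p = 0.124) in wild-type mice. Besides Socs1, and Il6 with the limit given above, the kinase gene Tyk2 was called higher in RelaΔhepStat3Δhep mice (0.55, SE 0.11, edgeR adjusted p = 0.015).

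Around Acod1, the list of Krebs cycle enzymes that make or use its substrate and product and of NRF2 targets held 15 tested genes. Their median log2 fold change was -0.3 in both genotypes. Acod1 was the only one called in wild-type mice, where the aconitase gene Aco1 had -0.23 (SE 0.17, edgeR adjusted p = 0.589) and Sdha, a subunit of the succinate dehydrogenase that itaconate inhibits, -0.18 (SE 0.21, edgeR adjusted p = 0.772). In RelaΔhepStat3Δhep mice Nqo1, a target of NRF2, rose from 5.81, 6.21 and 4.09 CPM to 13.9, 13.5 and 11.8 CPM (1.28, SE 0.26, edgeR adjusted p = 0.0146). Aco1 fell there by 0.66 (SE 0.17, edgeR adjusted p = 0.038).

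Of 25 other tested genes that LPS induces in macrophages, 24 had a positive log2 fold change in wild-type mice (median 0.75), beside 52.2% of all tested genes, and 1 was called, beside 0.453%. In RelaΔhepStat3Δhep mice 22 were positive (median 1.05), beside 49.4%, and 6 were called, all higher, beside 4.57%. Il1a stands in both this list and the inflammasome list, and its call is counted in each. Slfn4, a Schlafen family gene of myeloid cells, rose by a log2 fold change of 5.44 in wild-type mice (SE 0.87, edgeR adjusted p = 0.0214) and by 4.7 in RelaΔhepStat3Δhep mice (SE 0.87, edgeR adjusted p = 0.013). Untreated Slfn4 was near 0, at 0.237, 0.0547 and 0.347 CPM in wild-type mice and 0, 0.138 and 0.27 CPM in RelaΔhepStat3Δhep mice. Both fold changes therefore rest on very low untreated levels. The wild-type call of Slfn4 was also lost without either of the other untreated libraries (5.53 and 5.95, edgeR adjusted p = 0.0941 and 0.0726), with high Xist as a covariate (5.96, edgeR adjusted p = 0.0684) and with no low-count filter (5.42, edgeR adjusted p = 0.0521). Tlr2, a receptor for bacterial lipoproteins, rose by 1.6 (SE 0.39, edgeR adjusted p = 0.0302) and the costimulatory gene Cd86 by 1.46 (SE 0.31, edgeR adjusted p = 0.0168) in RelaΔhepStat3Δhep mice. Between the genotypes, none of the genes of the 5 lists was called by edgeR with all libraries in untreated or in DSS-treated mice, while between 1 and 5 genes of each list had an unadjusted p under 0.05 in untreated and between 4 and 6 in DSS-treated mice, beside 11.7% and 14.3% of all tested genes. In either direction, the DESeq2 Wald test called 0 to 3 genes per list in untreated and 0 to 1 in DSS-treated mice. Of all genes that test covered, 0.998% and 1.69% were called higher, and the shares in either direction are not given.

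**Figure D4:**
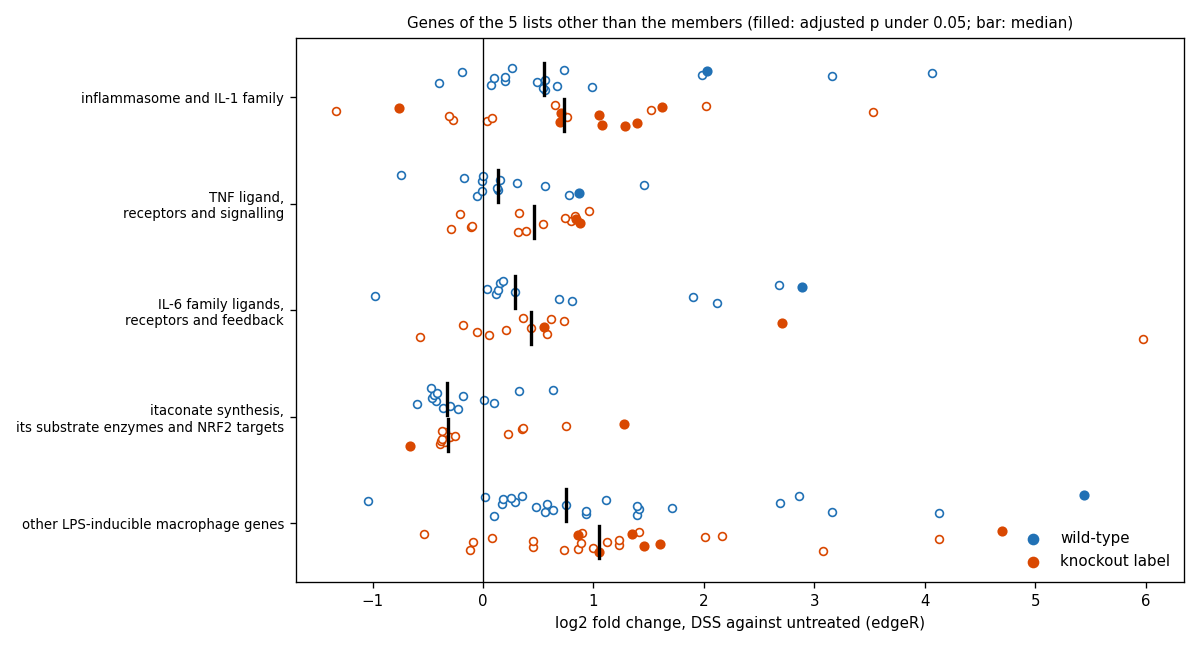
Log2 fold change after DSS (x axis, edgeR) of the genes in the 5 pathway lists without Nlrp3, Il1b, Tnf, Il6 and Acod1, for wild-type and RelaΔhepStat3Δhep mice (the knockout label); filled points have an adjusted p under 0.05 and the bar is the median of each row. Medians run from -0.33 (itaconate list) to 0.75 (LPS-inducible genes) in wild-type mice.

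The genes whose levels across the 12 libraries were most like each of the 5 were ranked by Pearson's r of log2(CPM + 0.5) among 11006 or 11007 genes with a symbol and a mean of at least 1 CPM. As the libraries fall into groups and share their differences in cell content and depth, these values describe likeness and carry no p-value. Nlrp3 was most like Irf8 (r = 0.977, Spearman's rho = 0.951), Tmem173 (r = 0.965, rho = 0.965) and Parp8 (r = 0.962, rho = 0.944). Irf8 encodes a transcription factor of monocytes and macrophages and Tmem173 encodes STING. Il1b was most like Ccdc59 (r = 0.954, rho = 0.951), Flna (r = 0.947, rho = 0.832) and Msn (r = 0.944, rho = 0.811). Acod1 was most like Slc28a2 (r = 0.977, rho = 0.979), Pmaip1 (r = 0.965, rho = 0.93) and Ccrl2 (r = 0.959, rho = 0.923). Il6 was most like the Schlafen genes Slfn1 (r = 0.95, rho = 0.856) and Slfn4 (r = 0.939, rho = 0.856) and Aldh18a1 (r = 0.935, rho = 0.906), with 5 libraries at 0. Tnf was most like Psd4 (r = 0.916, rho = 0.923), Tmem229b (r = 0.915, rho = 0.916) and Zfp207 (r = 0.912, rho = 0.916). Without the 2 libraries farthest from the median of the gene, r stayed between 0.831 and 0.963 for these 15 pairs.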

How the data were processed

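Paired-end libraries were made from rRNA-depleted liver RNA of 12 mice. The authors used fastp 0.23.2 for trimming, aligned the reads to mm9 with HISAT2 2.2.1 and made the deposited table of estimated counts with StringTie 2.2.1, as whole numbers without normalization. The annotation file used for counting and whether strand was used are not given in the sources used here. StringTie derives counts from coverage, and the totals exceed the depth that the methods state per sample.

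Groups were taken from the sample labels. In R 4.3.3 with edgeR 4.0.16, genes were filtered with filterByExpr (minimum count 10, 17652 kept), scaled by TMM factors of 0.758 to 1.13, and the 4 groups were fitted together with robust quasi-likelihood tests, although the study used DESeq2. P-values were adjusted by the Benjamini-Hochberg method over all tested genes, with a threshold of 0.05. A standard error is the absolute log2 fold change divided by the square root of F. Exact permutation tests used log2(CPM + 0.5). The common biological coefficient of variation was 0.317 on 8 residual degrees of freedom. The 3 libraries of a group come from separate mice.

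The 5 genes, the lists and the tests were chosen with earlier results of these data known. Beside the 5 genes and the targeted genes, up to 3 genes past the threshold per list and direction were named by size of change, the 2 most abundant list genes where fewer than 2 passed, and the 3 genes most like each of the 5; other names are marked. The alternatives were DESeq2 1.42.0, its size factors in edgeR, other low-count filters, a replicate block, only the groups compared, high Xist (over 100 CPM) as a covariate, leaving out each library, and, added after seeing the data, counts divided by 3. On simulated data for the wild-type comparison (17150 genes), 60 of 100 genes changed 4-fold and 23 of 100 changed 2-fold were called, with 3 false calls. No libraries were duplicates.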

Additional observations from a re-analysis of the deposited data

How the results depend on the processing

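The number of the 5 genes called after DSS in wild-type mice was 1 and became 2 with the DESeq2 Wald test, 0 with at least 10 counts in every library, which left Acod1 untested, 0 with only the groups compared, and 0 to 1 when each library was left out. In RelaΔhepStat3Δhep mice it was 4, Il6 included, and became 2 with at least 10 counts in every library, which left Acod1 and Il6 untested, 0 with high Xist as a covariate, and 0 to 3 when each library was left out. In untreated mice it was 0 between the genotypes and became 1 with the DESeq2 Wald test. The cause was not tested. DESeq2 gave no adjusted p for Il6 in 4 of the 5 comparisons, and with counts divided by 3 Il6 was not tested.

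The direction turned with high Xist as a covariate for Il6 between the DSS-treated genotypes (log2 difference 4.29) and for Tnf in the difference of the responses (-0.13). Leaving out each library gave ranges that cross or reach 0 for Tnf (-0.39 to 0.53) and Il6 (-4.64 to 0) between the untreated genotypes, Tnf (-0.03 to 0.5) and Il6 (-0.67 to 0.01) between the DSS-treated genotypes, and Nlrp3 (-0.09 to 0.31), Tnf (-0.29 to 0.62) and Il6 (-0.32 to 4.32) in the difference of the responses. None of these was called before. The Il6 values between the untreated genotypes and in the difference of the responses rest on untreated RelaΔhepStat3Δhep libraries that all had 0 counts. These Il6 values are given only to show where the sign was not kept, and are not read as folds. The fold changes of Nlrp3, Il1b and Acod1 after DSS kept their sign in both genotypes under all alternatives that could be fitted.

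The replicate numbers did not pair the samples, with correlations of same-numbered libraries from -0.073 to 0.206. With the replicate block, 1 gene was called in wild-type mice (Acod1, log2 fold change 3.56, edgeR adjusted p = 0.0112) and 4, Il6 included, in RelaΔhepStat3Δhep mice, as without it, and 0 in the other 3 comparisons. Of the list genes, Il18bp and Slfn4 in wild-type mice and Aco1 and Il1a in RelaΔhepStat3Δhep mice were not called with the block. With log2(CPM + 2) in place of log2(CPM + 0.5), the 3 genes most like Nlrp3 were the same and for the other 4 genes at least 1 of the 3 changed. Genes called of the 5 lists after DSS numbered 1 per list in wild-type mice and 0 to 3 when each library was left out, with 1 to 5 by DESeq2 and 0 to 1 with high Xist as a covariate. In RelaΔhepStat3Δhep mice they numbered 10 (inflammasome), 2 (TNF), 3 (IL-6), 3 (itaconate) and 6 (LPS), at most 7, 2, 3, 3 and 4 when each library was left out, at least 0 for each list then, and 0 for each list with high Xist as a covariate. DESeq2 called 13, 3, 3, 3 and 9 of them, and a fit of only the groups compared 12, 2, 3, 4 and 9. Between the genotypes 0 were called, and leaving out each library gave at most 1 (inflammasome), 1 (TNF), 3 (IL-6), 2 (itaconate) and 0 (LPS) in DSS-treated and 0 in untreated mice, where a fit of only the groups compared called 1 (IL-6). In the difference of the responses, leaving out each library gave at most 1 (inflammasome), 1 (TNF), 1 (IL-6), 2 (itaconate) and 0 (LPS), and DESeq2 called 1, 1, 0, 1 and 0. How far the low counts of Il6, Tnf and untreated Acod1 limit what could be detected for them was not tested.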
